A study of Mus musculus with 7 samples.

Results

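The genes examined here encode the major histocompatibility complex (MHC) of the mouse, named H2, and the proteins that load it with peptide. They were taken by name: all gene symbols starting with H2-, together with Cd74, Ciita, Nlrc5, B2m, Tap1, Tap2, Tapbp, Psmb8, Psmb9 and Psmb10. This gave 53 of the 24328 gene symbols measured: 10 class II genes, 32 class I genes, 6 genes of peptide processing and loading, the regulators Ciita and Nlrc5, the class II partner Cd74, the class I partner B2m, and H2-Ke6, a neighbour in the region that presents no antigen. Kidneys came from 3 LBR-null mice (genotype Lbric-J/ic-J; mice 4001, 4002 and 4007) and 1 WT littermate (genotype Lbr+/+; mouse 4009), all C57BL/6J and 4 weeks of age. The ic-J allele is a loss-of-function mutation of Lbr that every cell of the animal carries, and LBR, the lamin B receptor, spans the inner membrane of the nucleus and binds lamin B and chromatin proteins. Polyadenylated RNA of whole kidney was sequenced in 2 libraries each for mice 4001, 4007 and 4009 and in 1 library for mouse 4002. No group was treated, and no reporter or Cre allele is given for any of them.

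Values are read counts divided by the size factor of the library, called normalized counts. Library values were averaged within a mouse, errors are the SD over the 3 LBR-null mice, and the single WT mouse has no SD. The comparison asks how loss of LBR relates to the RNA of these genes in kidney.

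Antigen presentation follows parallel routes. Class I molecules pair a heavy chain with beta-2-microglobulin (B2m) and show peptides cut by the proteasome, carried into the endoplasmic reticulum by the Tap1-Tap2 transporter and loaded with the help of tapasin (Tapbp). Nearly all nucleated cells use this route, and interferon gamma raises it through IRF1 and the transactivator NLRC5. Class II molecules pair an alpha with a beta chain, travel with the invariant chain Cd74 and receive peptide in endosomes with the help of H2-DM. They belong mainly to dendritic cells, B cells and macrophages, and their genes are switched on together by the transactivator CIITA at a shared S-X-Y promoter module, whose Y box is bound by NF-Y. In kidney they are best known from resident dendritic cells and macrophages, and tubule cells can make them under interferon gamma.

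Matches of the Y box core in 8 members are shown first (promoters from the RefSeq table). These 8 were picked after their values were seen, from the 22 members with a match in the stretch printed. CIITA acts through the Y box at class II promoters, and many class I promoters hold a match of the core too. Members with large and with small differences can thus be seen side by side. The core also fits any CCAAT box, so a match need not be the Y box of the S-X-Y module, and this was not tested. Each line gives the 100 bases from 130 to 31 bases before the annotated start, 5′ to 3′ on the strand of the gene (build GRCm38.p6), with the Y box core GATTGG, or its reverse complement, in capitals.
H2-Aa (chr17:34287854-34287953, minus strand): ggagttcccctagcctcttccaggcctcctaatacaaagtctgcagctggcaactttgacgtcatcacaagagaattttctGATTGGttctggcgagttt
H2-Eb1 (chr17:34305737-34305836, plus strand): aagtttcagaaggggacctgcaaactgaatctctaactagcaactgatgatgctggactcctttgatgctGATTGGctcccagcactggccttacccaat
H2-DMb1 (chr17:34153061-34153160, plus strand): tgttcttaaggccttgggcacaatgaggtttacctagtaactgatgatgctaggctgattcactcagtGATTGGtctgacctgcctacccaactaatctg
H2-Ob (chr17:34238775-34238874, plus strand): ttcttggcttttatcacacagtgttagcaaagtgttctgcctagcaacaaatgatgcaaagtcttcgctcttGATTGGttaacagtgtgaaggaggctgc
B2m (chr2:122147557-122147656, plus strand): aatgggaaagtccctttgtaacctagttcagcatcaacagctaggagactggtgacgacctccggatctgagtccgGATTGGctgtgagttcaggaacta
H2-D1 (chr17:35262964-35263063, plus strand): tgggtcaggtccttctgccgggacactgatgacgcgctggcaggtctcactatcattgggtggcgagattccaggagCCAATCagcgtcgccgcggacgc
H2-T23 (chr17:36032732-36032831, minus strand): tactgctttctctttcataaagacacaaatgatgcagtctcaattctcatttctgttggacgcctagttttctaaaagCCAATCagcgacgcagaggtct
H2-Q4 (chr17:35379487-35379586, plus strand): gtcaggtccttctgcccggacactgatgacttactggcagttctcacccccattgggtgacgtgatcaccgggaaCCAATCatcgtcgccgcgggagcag

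The matching core began 49 bases before the start in H2-Aa, 60 in H2-Eb1, 62 in H2-DMb1 and 58 in H2-Ob, and it read GATTGG on the strand of each of these genes. H2-Eb1 holds a second core in the other orientation, which begins at the end of the printed stretch and runs beyond it. In B2m the core began 54 bases before the start and read GATTGG too. In H2-D1, H2-T23 and H2-Q4 the match began 53, 52 and 55 bases before the start, in the other orientation, and may be a CCAAT box other than the Y box. A match of the core lay within this stretch in 7 of the 8 class II genes with a promoter in the table, in 14 of 22 class I genes and in 0 of 5 processing and loading genes, against 9.74% of all 27025 genes in the table. In the whole window, from 250 bases before to 50 after the start, the core was found on either strand in 8 of 8 class II, 16 of 22 class I and 2 of 5 processing and loading genes (Psmb9 and Tap1), against 18.2% of all genes. The windows of Psmb9 and Tap1 overlap, and both hold the same match. The interferon response element core GAAANNGAA was found in 0 of 8 class II genes, 2 of 22 class I genes (H2-T22 and H2-T23) and B2m, against 9.76% of all genes. The gamma-activated site TTCNNNGAA was found in H2-DMb2, in 2 class I genes and in Psmb8, against 9.55% of all genes. None of these matches overlapped a match of another of these motifs. The letters are a description of the sequence, and binding was not measured. H2-Ab1, Tap2, Ciita and Nlrc5 were among the members with no promoter in the table, which matched 37 of 53 members.

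The classical class II genes and the invariant chain were lower in all 5 libraries of the LBR-null mice, by 6.59-fold to 8.0-fold on average. Every LBR-null library lay below WT for 25.7% of all genes tested. H2-Aa, the alpha chain of the I-A molecule, had 256 and 272 normalized counts in the libraries of mouse 4001, 331 in mouse 4002, 183 and 159 in mouse 4007, and 1973 and 2109 in the WT mouse. The mean was 255 ± 80.6 (SD, n = 3 mice) against 2041. Its partner H2-Ab1, the beta chain, had 229.6 and 227 in mouse 4001, 299 in mouse 4002, 160.2 and 140.4 in mouse 4007, and 1681 and 1719 in the WT mouse.

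The groups lay far apart for both chains of I-A, and mouse 4007 was the lowest and mouse 4002 the highest of the LBR-null mice. H2-Eb1, the beta chain of the I-E molecule, had 212 and 275 in mouse 4001, 388 in mouse 4002, 169 and 142 in mouse 4007, and 1990.0 and 2103 in the WT mouse. Its alpha chain partner is not made in C57BL/6J mice, and the files list H2-Ea only as a pseudogene row. Cd74, the invariant chain that fills the class II groove until peptide arrives, had 308 and 273 in mouse 4001, 569 in mouse 4002, 276 and 354 in mouse 4007, and 2504 and 2652 in the WT mouse. The order of the mice was not the same for Cd74, whose lowest value was in mouse 4001.

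**Figure D1:**
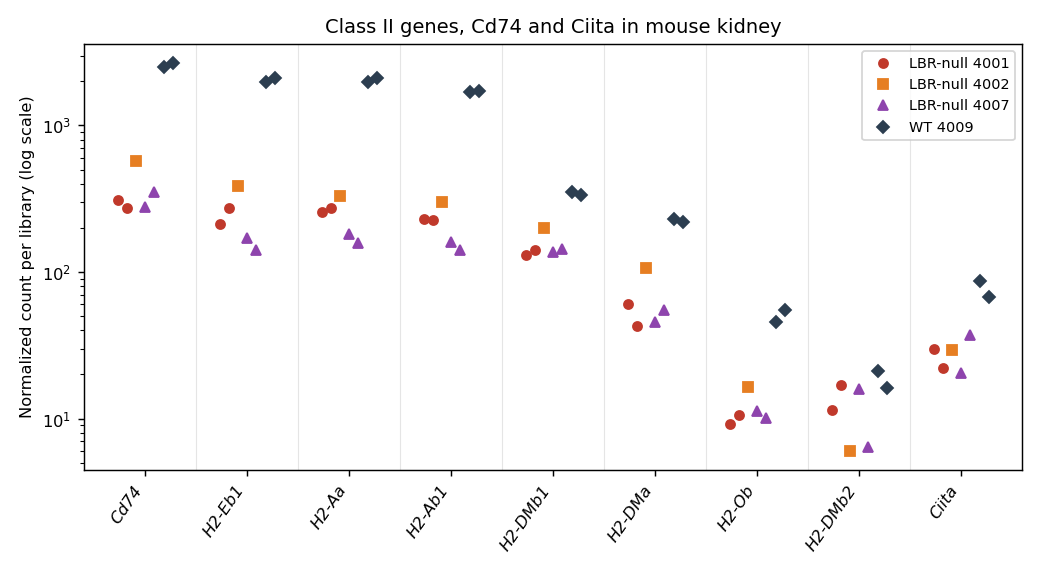
Normalized counts (log scale) of the 7 class II genes with a mean of at least 5, Cd74 and Ciita in each of the 7 libraries, coloured by mouse; each point is 1 library. Cd74, H2-Eb1, H2-Aa and H2-Ab1 lie between 140.4 and 569 in LBR-null libraries and between 1681 and 2652 in WT libraries, and only H2-DMb2 overlaps.

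The log2 fold change on log2(normalized count + 1) was -3.05 for H2-Aa (SE 0.40), -2.96 for H2-Ab1 (SE 0.411), -3.06 for H2-Eb1 (SE 0.492) and -2.78 for Cd74 (SE 0.415). None of these passed limma's adjusted p of 0.05 across all 17283 genes tested, with adjusted p values of 0.0795, 0.0800, 0.0906 and 0.0843. limma called 0 genes of all those tested (0%) at this limit and a 2-fold change. An exact permutation of 3 mice against 1 cannot go below a one-sided p of 0.25, so no such test is given. At an unadjusted p under 0.05 it had 8.05% of all genes lower and 10.7% higher, and 15 members lower and 1 higher. DESeq2 on the recovered reads of each mouse gave adjusted p values of 2.46e-09 for H2-Aa, 1.62e-08 for H2-Ab1, 1.12e-06 for H2-Eb1 and 8.07e-07 for Cd74. Over all alternatives the adjusted p of each of these 4 genes reached at most 0.229, and the highest log2 fold change was -2.60, for Cd74. It called 8 members lower and 0 higher, against 3.33% of all genes lower and 3.08% higher. The members that passed were H2-Aa, H2-Ab1, H2-Eb1, Cd74, H2-DMa, Psmb8, Psmb9 and Nlrc5. edgeR's quasi-likelihood test called 0 members, and 0.162% of all genes, with adjusted p values of 0.0526 for H2-Aa and 0.0559 for H2-Ab1. Without mouse 4001 limma called 6 members lower and 1 higher, against 3.83% and 2.94% of all genes, and without mouse 4002 it called 5 lower, against 1.66% of all genes.

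The genotype groups also differ in sex-linked RNA, and this touches every comparison. Xist, transcribed from the inactive X chromosome, lay between 5352 and 10163 normalized counts in mice 4001 and 4007 and at 65.3 in mouse 4002, against 31.7 and 39.4 in the WT mouse. The Y-linked Ddx3y lay between 39.2 and 149 in mice 4001 and 4007, at 1516 in mouse 4002, and at 1299 and 1269 in the WT mouse. Mice 4001 and 4007 thus had reads of both, with more of Ddx3y in mouse 4001, and mouse 4002 is the LBR-null mouse that matched the WT mouse in these genes. In mouse 4002 alone H2-Aa was 6.16-fold, H2-Ab1 5.68-fold, H2-Eb1 5.28-fold and Cd74 4.53-fold lower than in the WT mouse. Lbr itself was at 378 ± 81.8 (SD, n = 3) against 398, so the RNA level does not check the genotype label. The libraries held 20694016 to 26333284 reads on genes, and 1 read was worth 0.787 to 1.15 normalized counts.

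The chains of the I-A molecule stayed in a nearly fixed ratio. H2-Aa over H2-Ab1, a ratio of normalized counts, was 1.11 to 1.20 in the LBR-null libraries and 1.17 to 1.23 in the WT libraries. H2-Eb1 over H2-Ab1, the beta chains of different molecules, varied more among LBR-null libraries, at 0.925 to 1.30 against 1.18 to 1.22. Both ranges overlapped, so the classical chains were lower by like amounts within each mouse. The 3′ ends of H2-Aa and H2-Ab1 overlap on opposite strands (mm9, chromosome 17, exons from 34406276 to 34406363), and whether the authors' counting used strand is not given in the sources used here.

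The accessory class II genes H2-DMa, H2-DMb1 and H2-Ob were lower by less. H2-DMa, the alpha chain of the H2-DM molecule that exchanges peptides on class II, had 60.9 and 42.6 in mouse 4001, 107 in mouse 4002, 45.6 and 54.7 in mouse 4007, and 228 and 219 in the WT mouse, 3.22-fold lower on average. H2-DMb1, its beta chain, had 131 and 141, 200.3, and 137 and 143 in the same mice against 352 and 337, 2.17-fold lower. H2-Ob, the beta chain of the DM inhibitor H2-DO, had 9.19 and 10.6, 16.3, and 11.2 and 10.03 against 45.7 and 55.2, 4.10-fold lower. Every LBR-null library lay below WT for these 3 genes, as for 25.7% of all genes tested, with mouse 4002 nearest to WT in each. The limma adjusted p was 0.153 for H2-DMa, 0.164 for H2-DMb1 and 0.129 for H2-Ob. H2-DMb2, the second DM beta gene, had 6.02 to 16.9 in LBR-null libraries against 21.3 and 16.3, and the groups overlapped. H2-DMb1 and H2-DMb2 are near copies, with 13.8% and 12.1% of their 100-base windows also found in another gene, so reads may be shared between them.

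H2-DMa over H2-Ab1 was therefore higher in all LBR-null libraries, 0.188 to 0.390 against 0.127 and 0.136, and so was H2-DMb1 over H2-Ab1, 0.570 to 1.02 against 0.196 and 0.209. These ratios were chosen after their values were seen. The remaining class II rows were near the limit of detection. H2-Oa, the alpha chain of H2-DO, had 2 reads in all 5 LBR-null libraries together and 15 in the WT libraries, a WT over LBR-null ratio of 16.8 (exact 95% interval 3.92 to 152, counting error only). H2-Ea-ps went the other way with 33 reads against 3, an LBR-null over WT ratio of 4.90 (exact 95% interval 1.54 to 25.0). H2-Eb2 had 0 to 2 reads in a library and no difference was detectable at this depth.

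Ciita, the transactivator that class II transcription depends on, was 2.77-fold lower. It had 29.9 and 22.2 normalized counts in mouse 4001, 29.2 in mouse 4002, 20.5 and 37.4 in mouse 4007, and 87.4 and 67.8 in the WT mouse. The mean was 28.1 ± 1.77 (SD, n = 3) against 77.6, with a log2 fold change of -1.44 (SE 0.418, limma adjusted p = 0.148). The groups did not overlap, and the 3 LBR-null mice were close to each other, while H2-Ab1 differed between them. H2-Ab1 over Ciita was 3.76 to 10.2 in LBR-null libraries against 19.2 and 25.3. Of the 7 genes for the proteins that CIITA works with at the class II promoter (Rfx5, Rfxap, Rfxank, Nfya, Nfyb, Nfyc and Creb1), 0 differed 2-fold, 2 were below WT in every library and 2 above, near the 25.7% and 25.5% of all genes. At least 2-fold lower were 8.80% of all genes above 0, and 22.7% were higher. Rfx5, the DNA-binding part of the RFX complex, was at 434 ± 21.0 (SD, n = 3) against 424, and Nfya, a subunit of the Y box factor NF-Y, at 571 ± 189 against 1046.

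Endosomal enzymes and membrane proteins of the class II route showed mixed values. Of 9 such genes found in the files, 3 lay below WT in every library (Ctss, Lamp1 and Cd63), against 25.7% of all genes. The groups overlapped for 6, as they did for 8446 of all 17283 genes tested. At least 2-fold, 1 was lower and 1 higher, against 8.80% and 22.7% of all genes above 0. The 1 lower gene was Ctss, cathepsin S, which trims the invariant chain in antigen-presenting cells, at 199.7 ± 11.7 (SD, n = 3) against 443. Ctsl, cathepsin L, was at 32556 ± 18504 against 15395, highest in mouse 4001 and below both WT libraries in mouse 4002. The median log2 fold change of the list was -0.17, against 0.01 over all genes tested.

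The 4 most abundant class I heavy chains differed from WT by less than 2-fold, and of the 15 class I genes tested 5 lay below WT in every LBR-null library, 3 above and 7 overlapped, against 25.7% below and 25.5% above of all genes. H2-K1, a classical class I heavy chain and the most abundant member of that class by normalized count, had 7735 and 6759 in mouse 4001, 5161 in mouse 4002, 5239.6 and 5431 in mouse 4007, and 6839 and 6519.7 in the WT mouse. The groups overlapped, with mouse 4001 within or above the WT range and the other mice below it, and the mean was 5914 ± 1157 (SD, n = 3) against 6679. H2-D1, the other classical heavy chain, had 1288 and 995, 1642, and 1502 and 1519 against 1645 and 1769. It was 1.19-fold lower with a log2 fold change of -0.27 (SE 0.285, limma adjusted p = 0.658), and all its LBR-null libraries lay below WT, with mouse 4002 almost at the WT level.

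H2-T23, the Qa-1 molecule that shows signal peptides to natural killer cells, had 3533 and 2848 in mouse 4001, 2517 in mouse 4002, 2615 and 2611 in mouse 4007, and 2537 and 2595 in the WT mouse. The groups overlapped and the fold change was 1.08, with mouse 4001 alone well above WT. H2-Q4, a nonclassical heavy chain, was at 1039.8 ± 170.3 (SD, n = 3) against 1298, 1.248-fold lower, and all its LBR-null libraries lay below WT. Per kilobase of exon, the WT levels were 2561 normalized counts for H2-K1, 888 for H2-T23, 659.7 for H2-D1 and 1027 for H2-Aa, and the LBR-null levels were 2268, 960.0, 553 and 128. By this length-scaled level H2-Aa lay above H2-D1 in WT kidney and below it in LBR-null kidney.

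**Figure D2:**
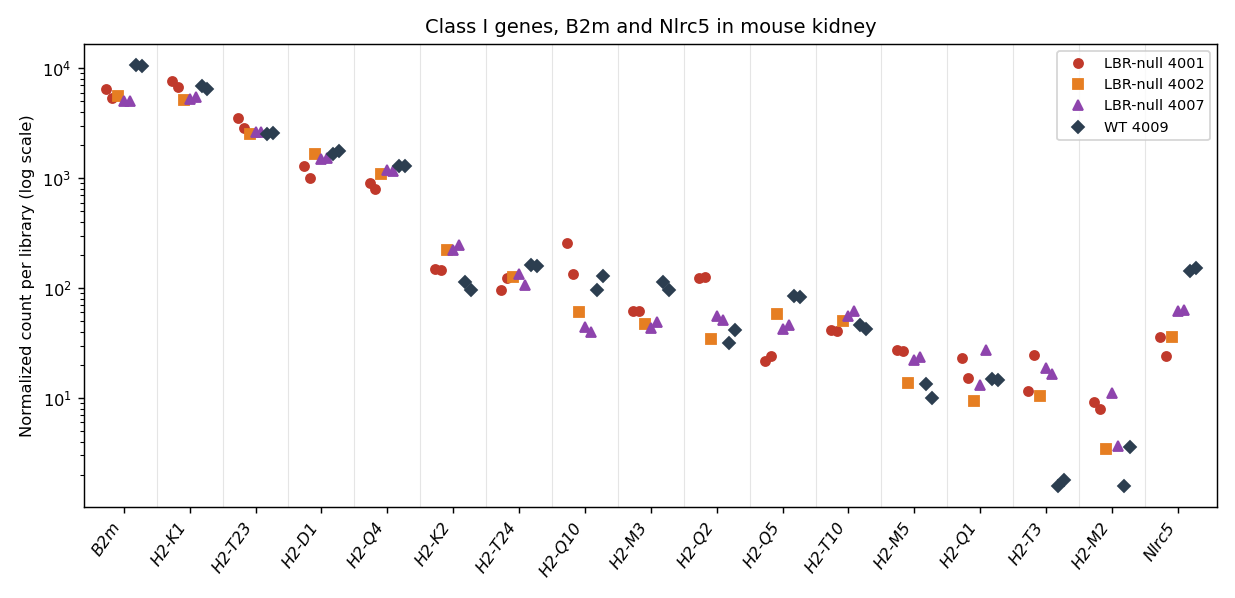
Normalized counts (log scale) of B2m, the 15 class I genes with a mean of at least 5 and Nlrc5 in each of the 7 libraries, coloured by mouse; each point is 1 library. H2-K1 and H2-T23 overlap between the groups, B2m and Nlrc5 lie lower and H2-T3 and H2-K2 higher in all LBR-null libraries.

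B2m, the light chain that all class I molecules need, was 1.93-fold lower, a larger difference than that of the main heavy chains. It had 6462 and 5406 in mouse 4001, 5535 in mouse 4002, 5072 and 5019 in mouse 4007, and 10695 and 10572 in the WT mouse. The LBR-null mice were close together, at 5505 ± 445 (SD, n = 3), and all libraries lay below WT. The log2 fold change was -0.95 (SE 0.272), with an adjusted p of 0.142 by limma and 0.0160 by DESeq2, and it is under the 2-fold limit. B2m over H2-K1 was 0.80 to 1.07 in LBR-null libraries and 1.56 and 1.62 in WT libraries, so the light chain was lower relative to the heavy chain within each library. This ratio too was chosen after its values were seen.

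Nlrc5, the transactivator of class I genes, was 3.44-fold lower. It had 35.6 and 24.0 in mouse 4001, 36.1 in mouse 4002, 62.4 and 62.9 in mouse 4007, and 143 and 151 in the WT mouse. The groups did not overlap, and mouse 4007 was the nearest to WT for Nlrc5 while it was the farthest for the class II chains. The log2 fold change was -1.83 (SE 0.518), with an adjusted p of 0.141 by limma and 0.0436 by DESeq2. Over the alternatives by limma, edgeR and DESeq2 the adjusted p spanned 0.00954 to 0.309 for Nlrc5 and 0.00228 to 0.514 for B2m.

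Some class I genes departed from the rest in either direction, all at low levels. H2-T3, the thymus leukaemia antigen known from gut epithelium, had 11.5 and 24.8 in mouse 4001, 10.3 in mouse 4002, 18.6 and 16.4 in mouse 4007, and 1.57 and 1.81 in the WT mouse. This came from 88 reads in LBR-null and 4 in WT libraries, a ratio of 9.80 (exact 95% interval 3.70 to 36.8, counting error only), and the limma adjusted p was 0.115. The groups did not overlap for H2-T3. H2-K2, listed as a pseudogene beside H2-K1, was at 202 ± 46.7 (SD, n = 3) against 105 and was higher in all LBR-null libraries, as was H2-M5 at 21.3 ± 6.83 against 11.7.

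H2-M3, which shows formylated bacterial peptides, had 62.0 and 61.2 in mouse 4001, 47.3 in mouse 4002, 43.8 and 49.2 in mouse 4007, and 114 and 95.9 in the WT mouse, 2.03-fold lower. H2-Q5 had 21.8 and 24.0, 57.6, and 42.8 and 46.5 against 84.3 and 83.2, 2.01-fold lower, with mouse 4001 the lowest. For both, all LBR-null libraries lay below WT, as for 25.7% of all genes tested, and the limma adjusted p was 0.242 for H2-M3 and 0.376 for H2-Q5. H2-T24 was 1.35-fold lower at 119 ± 8.44 (SD, n = 3) against 161.

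The LBR-null mice disagreed on H2-Q10, which in the mouse is known as a secreted class I product of liver. It was at 259.5 and 135 in mouse 4001, 60.2 in mouse 4002 and 44.7 and 40.1 in mouse 4007, against 96.9 and 128 in the WT mouse, so mouse 4001 was above and the others below. H2-Q2 was also high in mouse 4001, at 123 and 127, against 34.4 to 55.9 in the other LBR-null libraries and 31.5 and 41.6 in WT. H2-Q1, H2-T10 and H2-M2 overlapped between the groups, with means of 16.2, 49.96 and 6.48 against 14.7, 44.5 and 2.6. Of the 32 class I genes 15 had a mean of at least 5, and these had a median log2 fold change of 0.06, the medians by mouse being 0.31 (4001), -0.09 (4002) and 0.03 (4007). The 4 rows below that mean (H2-Bl, H2-M9, H2-M10.5 and H2-M10.6) had 0 to 7 reads in a library, and 13 were listed at 0 in all 7 libraries, where 3 reads would have been 2.36 to 3.44 normalized counts. Of those 13, H2-T9 shares 98.3% of its 100-base windows with other genes, so its reads could hardly be assigned. H2-Q6, H2-Q7 and H2-T22 share only 9.12% to 10.9%, like H2-T10 (9.72%), which had 36 to 68 reads in a library. No share was available for H2-L, H2-Q8 and H2-Q9. The cause of the listed 0 values was not tested, and they need not mean absence of RNA.

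All 6 processing and loading genes lay below WT in every LBR-null library, against 25.7% of all genes, with the largest differences in the inducible proteasome subunits Psmb9 and Psmb8. DESeq2 called these 2 of the 6 lower, against 3.33% of all genes, and limma called 0. Psmb9, a catalytic subunit that replaces Psmb6 in the immunoproteasome, had 95.3 and 101 in mouse 4001, 104 in mouse 4002, 106 and 97.5 in mouse 4007, and 273 and 306 in the WT mouse. The 3 LBR-null mice were nearly equal, at 101 ± 2.93 (SD, n = 3) against 289.5, 2.86-fold lower. Psmb8, which replaces Psmb5, had 287 and 188, 200.3, and 226 and 199 against 579 and 637, 2.80-fold lower. Psmb10, which replaces Psmb7, had 629 and 512, 494, and 427 and 425 against 863 and 878, 1.75-fold lower. No library of an LBR-null mouse reached the WT range for any of the 3. The adjusted p by limma and by DESeq2 was 0.107 and 0.00183 for Psmb9, 0.0969 and 3.07e-04 for Psmb8, and 0.184 and 0.115 for Psmb10. Over the alternatives the highest adjusted p by limma, edgeR or DESeq2 was 0.360 for Psmb9, 0.316 for Psmb8 and 0.601 for Psmb10.

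The subunits that they replace were nearer to WT. Psmb5 was at 1210.1 ± 170.2 (SD, n = 3) against 1648, Psmb6 at 3537 ± 391 against 4109, and Psmb7 at 3445 ± 963 against 3525. The inducible over the constitutive subunit, a ratio of normalized counts within a library, was 0.155 to 0.235 against 0.364 and 0.374 for Psmb8 over Psmb5. For Psmb9 over Psmb6 it was 0.0229 to 0.0344 against 0.0672 and 0.0737, and for Psmb10 over Psmb7 it was 0.125 to 0.164 against 0.246 and 0.248. Of 14 constitutive proteasome genes, 0 differed 2-fold and 9 overlapped between the groups, as did 8446 of all 17283 genes tested, with a median log2 fold change of -0.14. The proteasome activators gave 0 of 5 genes with a 2-fold difference and 3 below WT in every library (25.7% of all genes), with Psme2 at 1329 ± 182 against 1882. By the 2-fold limit 8.80% of all genes above 0 were lower and 22.7% higher.

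**Figure D3:**
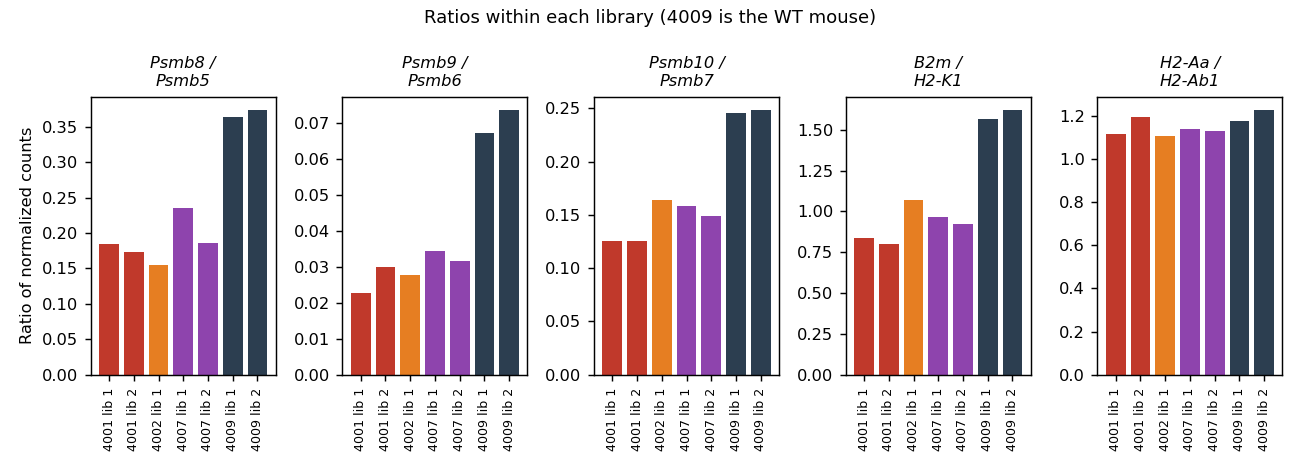
Ratios of normalized counts within each of the 7 libraries, with 1 bar per library and mouse 4009 as WT; the axes start at 0. Psmb8, Psmb9 and Psmb10 over their constitutive counterparts and B2m over H2-K1 are lower in all 5 LBR-null libraries, while H2-Aa over H2-Ab1 lies between 1.11 and 1.23 throughout.

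Of the peptide transporter, Tap1 was at 325 ± 34.4 (SD, n = 3) against 571, 1.75-fold lower, with 369.7 and 347 in mouse 4001, 289.8 in mouse 4002, 306 and 349 in mouse 4007, and 581 and 560.0 in the WT mouse. Tap2 was lower by less, with 568 and 543, 559.7, and 564 and 654 against 709 and 758, 1.28-fold. Tapbp, tapasin, which bridges the transporter and the class I molecule, had 2803 and 2590.3, 2669.7, and 2305 and 2424 against 3034 and 3086, 1.19-fold. All LBR-null libraries lay below both WT libraries for each of these, by amounts that limma did not call (adjusted p = 0.184, 0.479 and 0.624). Psmb9 and Tap1 are read in opposite directions from one start region, and their promoter windows share 275 of 300 bases and Psmb9 over Tap1 was 0.258 to 0.359 in LBR-null libraries against 0.470 and 0.546 in WT. Their gene models overlap there (mm9, chromosome 17, 34324498 to 34324709), and reads in the overlap could have been counted for either. Among 8 further genes of class I loading, 1 was 2-fold lower and 0 higher, against 8.80% and 22.7% of all genes above 0. That 1 gene was Calr, calreticulin, at 7894 ± 2015 against 18565. Below WT in every library were 4 of the 8, against 25.7% of all genes.

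By class, the tested class II genes had a median log2 fold change of -1.98, the medians by mouse being -2.24 (4001), -1.57 (4002) and -2.15 (4007). The processing and loading genes had -0.82, with -0.64, -0.90 and -0.91 in the same mice, and the class I genes had 0.06, while the median of all genes tested was 0.01. Of the 40 members above 0, 16 were at least 2-fold lower and 5 at least 2-fold higher in the mean, against 8.80% and 22.7% of all genes above 0. The 16 lower were 7 class II and 4 class I genes, Cd74, Psmb8, Psmb9, Ciita and Nlrc5. The 5 higher were H2-T3, H2-M2, H2-Ea-ps, H2-M9 and H2-M10.6, all rows of few reads, as were 2 of the lower class I genes (H2-Bl and H2-M10.5). Of the 33 members with a mean of at least 5, 21 had all LBR-null libraries below the WT range and 3 had all above it, against 25.7% and 25.5% of all genes tested. The 3 above, H2-K2, H2-M5 and H2-T3, are a share smaller than that of all genes. H2-Ke6, the member that presents no antigen, was at 2589.9 ± 176 (SD, n = 3) against 2649 and overlapped between the groups.

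**Figure D4:**
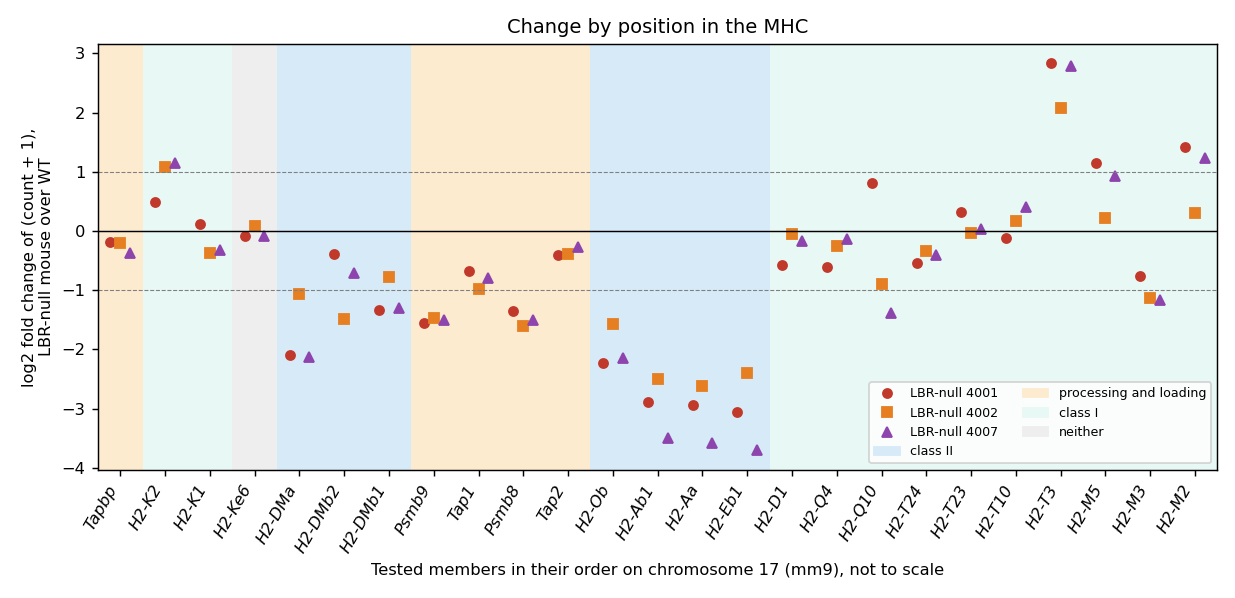
log2 fold change of (normalized count + 1) of each LBR-null mouse over the WT mouse for the tested members on chromosome 17, in their order in mm9 and not to scale; background colours give the class and dashed lines mark 2-fold. The lowest values, down to -3.71, are H2-Ab1, H2-Aa and H2-Eb1, and the genes on either side lie nearer to 0.

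Among the tested members on chromosome 17 the largest differences, those of H2-Ab1, H2-Aa and H2-Eb1, lay in the class II stretch. Processing genes are set among the class II genes there. In mm9, H2-Ab1 lies at chr17:34400154-34406363 (plus strand), H2-Aa at chr17:34406276-34424772 (minus strand) and H2-Eb1 at chr17:34442828-34453144 (plus strand). Outside this region lie B2m (chr2:121973422-121978819), Psmb10 (chr8:108459628-108462292), Nlrc5 (chr8:96996663-97051172) and Ciita (chr16:10480237-10527657). Cd74, 6.59-fold lower, also lies on another chromosome, so large differences were not confined to this region. From H2-Oa to H2-Eb2 (mm9, chromosome 17, 34229285 to 34477174) 11 members were tested and 10 lay below WT in every library, against 25.7% of all genes, with log2 fold changes from -3.06 to -0.35. Over the wider region another 5 members lay below WT in every library, namely Tapbp, H2-D1, H2-Q4, H2-T24 and H2-M3. Brd2, a chromatin reader that is the only other gene tested in this stretch, was at 4443 against 4922 and did not differ 2-fold. Over the wider region from Tapbp to H2-M2 (34052844 to 37620497), 9 of 26 members and 5 of 99 other genes were at least 2-fold lower, and 2 and 9 were at least 2-fold higher. Among all 17283 genes tested, 1217 were lower and 2513 higher by that limit. In this wider region 25 of the 99 other genes lay below WT in every library and 15 above, against 25.7% and 25.5% of all genes. H2-K1, on one side of the class II genes, and H2-D1, on the other side, were at 5914 against 6679 and at 1432 against 1707.

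Genes of the interferon gamma response were lower in part. Of 25 listed genes 9 were at least 2-fold lower, 1 was 2-fold higher, and 14 lay below WT in every LBR-null library, with a median log2 fold change of -0.65. Of all genes above 0, 8.80% were at least 2-fold lower and 22.7% higher (1217 and 2513 of the 17283 tested). Below WT in every library lay 25.7% of the genes tested. Gbp4, a guanylate-binding protein that interferon gamma induces, was at 115 ± 18.3 (SD, n = 3) against 467, and Iigp1, an immunity-related GTPase, at 289 ± 33.4 against 723. Irf1 was at 536 ± 31.1 against 818, under a 2-fold difference. Ifng itself was the 1 gene higher by 2-fold, at 14.1 ± 4.82 against 3.6, and its receptor gene Ifngr1 was at 1805 ± 494 against 1026. DESeq2 called 7 of these 25 genes lower and 0 higher, against 3.33% and 3.08% of all genes, and limma called 0.

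Markers of several immune cells were lower along with the class II genes, and in bulk tissue fewer cells of a type and less RNA per cell cannot be told apart. The 5 pan-leukocyte genes summed to 864 to 1047 in LBR-null libraries against 2018 and 2085, and all 5 lay below WT in every library. The counts for these lists stand against 25.7% of all genes below WT in every library, and 8.80% at least 2-fold lower and 22.7% higher. The 12 dendritic cell genes summed to 359 to 414 against 743 and 765, with 6 at least 2-fold lower and 1 (Flt3) 2-fold higher. Itgax, the integrin CD11c, was at 9.21 ± 2.17 (SD, n = 3) against 73.5, and Cd209a, a lectin of monocyte-derived dendritic cells, at 4.41 ± 4.56 against 58.2. Zbtb46, which marks classical dendritic cells and endothelium, was at 132 ± 24.1 against 109 and Clec9a at 80.6 ± 18.8 against 101. No gene of these lists was at 0 in all libraries.

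The 14 macrophage genes summed to 4029 to 4591 against 5500.2 and 5511, with 3 at least 2-fold lower and 1 (Cd163) 2-fold higher. Csf1r, the receptor that macrophages depend on, was at 1190.0 ± 112 (SD, n = 3) against 1609. B cell genes summed to 108 to 209 against 235 and 244, and T cell genes to 168 to 212 against 275 and 283. Among the T cell genes Cd8a was at 45.2 ± 22.5 (SD, n = 3) against 135 and carried most of that gap, Cd3e was at 27.6 ± 8.31 against 11.6, and Cd4 at 33.2 ± 9.84 against 32.4. Neutrophil genes summed to 769.5 to 3344 against 419 and 443, with 10 of 11 at least 2-fold higher, and natural killer cell genes overlapped, with 31.9 to 55.1 against 36.2 and 37.1. Of kidney cell types, the 8 proximal tubule genes summed to 103107 to 256980 against 470389 and 488671, so the labelled tissue was present in all libraries. Kap alone made up most of the WT sum, at 131041 ± 73361 (SD, n = 3) against 357146, and 6 of the 8 genes were at least 2-fold lower while Slc5a12 was 2.55-fold higher. The podocyte genes summed to 7877 and 8736 in mouse 4001 and 15285 to 16789.9 in mice 4002 and 4007, against 19897.5 and 19954. The endothelial genes summed to 21749 to 29947 against 29612 and 30229, and the groups overlapped.

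The class II chains were lower than these marker sums by more, but not than some single dendritic cell genes. H2-Aa, H2-Ab1 and H2-Eb1 together summed to 441 to 1018 in LBR-null libraries against 5644 and 5931, and the 3 chains were 7.52-fold to 8.0-fold lower. Itgax was 7.98-fold lower, Xcr1 7.19-fold, Mgl2 8.41-fold and Cd209a 13.2-fold. Xcr1 and Cd209a were near the floor in LBR-null mice, with means of 2.95 and 4.41 against 21.2 and 58.2, so their folds are uncertain. Zbtb46 and Clec9a were not 2-fold lower, and Flt3 was 2.05-fold higher. These 3 make up much of the dendritic cell sum in LBR-null libraries, while Mgl2, at 192, was the largest part in WT. H2-Ab1 over Ptprc, the leukocyte marker CD45, was 0.714 to 2.05 against 6.37 and 7.48, and H2-Ab1 over Csf1r was 0.119 to 0.228 against 1.05 and 1.07. H2-Ab1 over Itgax, in contrast, was 17.1 to 31.6 against 19.1 and 29.2, and the groups overlapped, so H2-Ab1 and Itgax were lower by like amounts, with Itgax at 5.47 to 13.3 normalized counts in LBR-null libraries. The ratios were chosen after their values were seen, and the part of each cell type in the class II result was not tested.

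**Figure D5:**
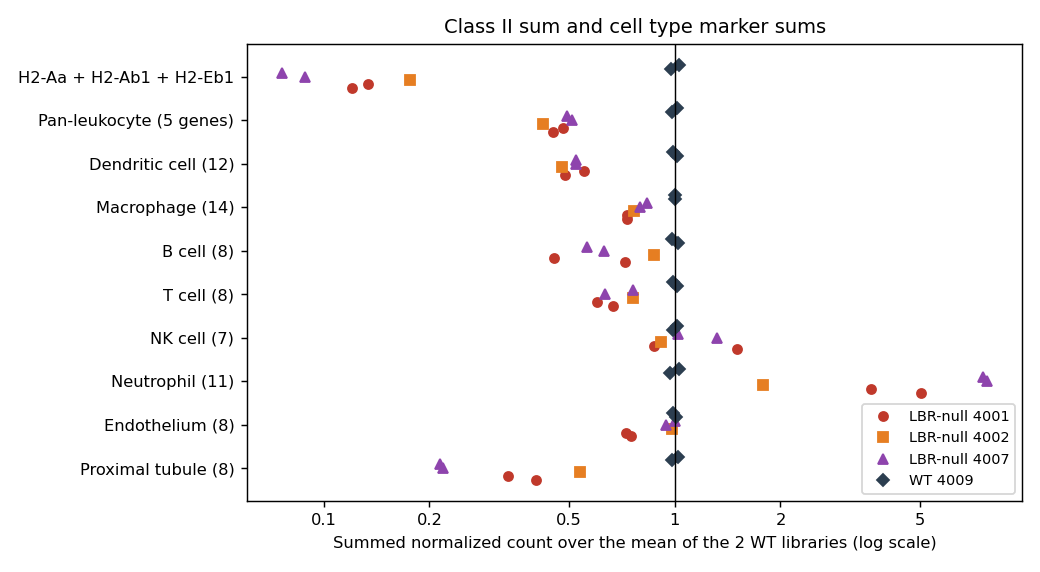
Summed normalized counts of H2-Aa, H2-Ab1 and H2-Eb1 and of marker gene lists in each library, divided by the mean of the 2 WT libraries (log scale), coloured by mouse. The class II sum lies at 0.0762 to 0.176 in LBR-null libraries, pan-leukocyte and dendritic cell sums at 0.421 to 0.550, and neutrophil sums at 1.78 to 7.76.

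Other genes of antigen presentation were few and mixed; of all genes 8.80% were 2-fold lower and 22.7% higher. Of 9 class I-like genes outside H2 found in the files 1 was 2-fold lower, Raet1d, which was above 0 in 1 WT library only, and 1 was 2-fold higher, Azgp1, at 80.5 ± 46.6 (SD, n = 3) against 31.8. Fcgrt, the neonatal Fc receptor heavy chain, was at 4746 ± 1863 against 5758 and Mr1, which shows vitamin metabolites, at 428 ± 40.1 against 367. Of 6 costimulatory genes 0 were 2-fold lower and 3 were 2-fold higher (Cd86, Cd83 and Pdcd1lg2). Cd86, a ligand of T cell costimulation on antigen-presenting cells, was at 94.2 ± 33.9 against 44.4, although its library values overlapped, and Cd40 was at 85.1 ± 15.7 against 142.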

How the data were processed

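Poly(A) RNA from pulverized right kidney was sequenced as 150-base paired reads. Per the labels and methods, the authors used STAR 2.6.0 for alignment to mm9 and DESeq2 1.25.1 for size factors, by which gene counts were divided; these signal values were deposited per library. The counting program and annotation are not given in the sources used here. Whole reads were recovered from the steps of the values, 100% within 0.01 read. Library values were averaged within a mouse. log2(value + 1) was tested with limma 3.58.1 (R 4.3.3) over the 17283 genes whose mean over the 4 mice reached 5. Adjustment was by Benjamini-Hochberg over all of them, and a call needed an adjusted p under 0.05 and a 2-fold change. The fit has 2 residual degrees of freedom, the lone WT mouse was assumed to vary like the LBR-null mice, and p-values cover these mice only. edgeR 4.0.16 and DESeq2 1.42.0 on recovered reads summed per mouse were alternatives. The fits were tested on simulated data. Counts of genes with a 2-fold difference of means need no test. Per-library values were given within each class for the 3 members of highest mean and the 3 of largest change, for Cd74, Ciita, Nlrc5 and B2m and, chosen after their values were seen, for a few others (among them H2-Q10, H2-Q2 and Tap1); other genes were named only from pathway and marker lists, apart from Brd2, named for its position; members and lists were chosen with earlier results of these data known. Promoters came from RefSeq (GRCm38.p6) and gene models from mm9, and no coordinate was converted.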

Additional observations from a re-analysis of the deposited data

Results flagged for a closer look

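Of the 33 members with a mean of at least 5, 5 had 1 library of the LBR-null group far from the other 4 by Dixon's test at the 95% level. Chance gives such a gap in about 1 in 20 groups, and libraries of one mouse are not independent. In 4 of them it was the single library of mouse 4002: H2-DMa at 107 normalized counts against 42.6 to 60.9 in the others, H2-DMb1 at 200.3 against 131 to 143, H2-Ob at 16.3 against 9.19 to 11.2, and Cd74 at 569 against 273 to 354. All of these still lay below both libraries of the WT mouse. For Tap2 it was the second library of mouse 4007, at 654 against 543 to 568 in the others, while the first library of the same mouse had 564.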

How the results depend on the processing

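By limma 0 members were called lower and 0 higher. Leaving out 1 mouse or WT library gave 0 to 6 lower and 0 to 1 higher: 6 lower and 1 higher (H2-K2) without mouse 4001, and 5 lower without mouse 4002. Taking all 7 libraries as samples gave 11 lower and 1 higher, and the replicate block over the 6 numbered libraries gave 12 lower and 1 higher. Libraries of a mouse are not independent, however, and the numbers name no shared mouse or batch. The share of all genes called is not given for either fit, so these counts cannot be set against a general rate. DESeq2 gave 8 lower. For DESeq2 and the fits without mouse 4001 or 4002, the shares of all genes stand in the Results. The class II median went from -1.98 to -2.47 with a mean of at least 20. The class I median of 0.06 changed sign with a mean of at least 20 (-0.27) and with the first library of each mouse (-0.070), and spanned -0.10 to 0.14 when 1 mouse or library was left out. Members 2-fold higher went from 5 to 3 with a pseudocount of 0.5 and to 1 with a pseudocount of 5. Members with all libraries above WT went from 3 to 5 with equal library totals and spanned 3 to 6 in the leave-one-out fits, 6 without mouse 4002 and 5 without WT replicate 2. H2-Q1 was at -0.070 with the first library of each mouse and spanned -0.12 to 0.39, and H2-T23 spanned -0.0011 to 0.17, when 1 was left out. Of the other 31 members, 27 kept their direction in all 17 alternatives and 4 (H2-DMb2, H2-M2, H2-M5 and H2-T3) in the 14 to 16 in which they passed the filter on low values. The cause of these shifts was not tested. Leaving out near-identical class I rows by protein identity was not run. With 1 WT mouse, differences between WT animals could not be measured, and at 2.36 to 3.44 normalized counts for 3 reads the rows near 0 limit any statement on them.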
